A study of Mus musculus with 10 samples.

Results

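The oxidative phosphorylation genes are the nuclear genes for the 5 protein complexes of the mitochondrial inner membrane that burn reduced cofactors with oxygen and make ATP. Members were taken by symbol alone: every gene of the single-cell gene list whose symbol starts with Nduf, Sdha, Sdhb, Sdhc, Sdhd, Uqcr, Cox4, Cox5, Cox6, Cox7, Cox8 or Atp5, pseudogene symbols holding -ps left out. That gave 97 of 32285 genes, and all 97 also have a row among the 55341 genes of the bulk tables, 1 of them (Atp5md) under an older symbol. The rule itself uses symbols and no measured value.

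The mice carried lung tumours grown from KP cells injected into a vein of syngeneic animals, with tumour formation seen by magnetic resonance imaging before treatment. All groups were treated for 11 days: with vehicle, with SHP099 (an inhibitor of the phosphatase SHP2), with SX682 (an inhibitor of the chemokine receptors CXCR1 and CXCR2), or with both drugs, called the combination here. Bulk RNA-seq covers Epcam+ sorted cells of 3 SHP099 and 3 vehicle samples, and single-cell RNA-seq covers live cells of dissociated tumour nodules from 12 mice, 3 per treatment. The 3 mice of a treatment were hashtagged and pooled into 1 capture, so the treatment and its capture cannot be told apart, and all tumours stem from 1 transplanted line.

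The single-cell files hold 44986 cells in 33 clusters as the authors numbered them, and clusters are named here by their own marker genes with "-like". Median UMIs (unique transcript counts) per cell were 2824 to 4838 over the vehicle mice and 2501.5 to 2731.5 over the SX682 mice, but 1440 to 1612 over the SHP099 mice and 1532 to 1632.5 over the combination mice. Bulk libraries held 51939301 to 73361005 counted reads. The same barcode occurred in more than 1 capture for 1009 barcodes and never more than once within a capture.

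Complex I (NADH dehydrogenase), complex II (succinate dehydrogenase), complex III (the cytochrome bc1 complex) and complex IV (cytochrome c oxidase) pass electrons to oxygen, and all but complex II pump protons that complex V (ATP synthase) uses to make ATP. Large catalytic and membrane-core subunits do the chemistry, while many small accessory subunits surround them. A few subunits of complex IV exist as isoforms that differ between tissues, and dedicated assembly factors help build the complexes without being part of them. Among the 97 members, 44 belong to complex I (7 core subunits, 29 accessory subunits and 8 assembly factors), 8 to complex II, 8 to complex III and 17 to complex V. The rest belong to complex IV, apart from Cox7a2l, which bridges complexes III and IV.

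Many members encode very short proteins. Their coding lengths run from 159 to 2184 bases with a median of 414, against a median of 1161 over 21875 protein-coding genes. The coding sequences of 4 of the shortest follow because they were the 4 members called higher in most clusters with SHP099, and because the results below are given by coding length. Letters are from GENCODE vM21 transcripts, 5′ to 3′ on the coding strand, with the start codon and the stop codon in capitals. Atp5md and Atp5mpl encode small membrane subunits that sit at the base of ATP synthase, Cox7c a small membrane subunit of cytochrome c oxidase, and Atp5e the epsilon subunit of the rotating stalk of ATP synthase. The genes lie at chr19:47083464-47090647, chr12:111961375-111966977, chr13:86044816-86046904 and chr2:174461072-174464105, all on the minus strand of GRCm38.
Atp5md: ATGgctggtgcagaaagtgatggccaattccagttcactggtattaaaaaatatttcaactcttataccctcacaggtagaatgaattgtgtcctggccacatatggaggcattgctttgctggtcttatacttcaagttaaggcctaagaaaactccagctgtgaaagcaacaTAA
Atp5mpl: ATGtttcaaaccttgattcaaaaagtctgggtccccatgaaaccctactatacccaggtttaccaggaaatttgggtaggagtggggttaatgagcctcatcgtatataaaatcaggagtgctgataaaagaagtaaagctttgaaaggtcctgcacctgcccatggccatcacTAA
Cox7c: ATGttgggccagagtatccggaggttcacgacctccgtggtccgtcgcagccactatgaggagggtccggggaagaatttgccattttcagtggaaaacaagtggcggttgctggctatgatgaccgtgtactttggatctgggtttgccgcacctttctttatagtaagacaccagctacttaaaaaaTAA
Atp5e: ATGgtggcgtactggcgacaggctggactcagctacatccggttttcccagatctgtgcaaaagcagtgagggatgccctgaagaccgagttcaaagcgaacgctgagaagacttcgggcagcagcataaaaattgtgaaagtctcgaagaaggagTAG

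Promoters were searched over 250 bases before to 50 bases after the RefSeq start site on both strands, in 79 members whose promoter has an entry, for 3 motifs: GCGCATGC (NRF1), CCGGAAG (ETS family) and AAGATGGC (YY1). The ETS and YY1 motifs can overlap, since the last letters of the first (AAG) begin the other. These factors are textbook regulators of nuclear genes for mitochondrial proteins. At least 1 of the 3 occurred in 46.84% of the members against 14.89% of 27025 genes of the table. The ETS motif occurred in 27.85% of members against 9.93%, the YY1 motif in 12.66% against 3.19%, and the NRF1 motif in 15.19% against 3.05%. The letters G and C made up a median of 58.5% of the 84 promoter entries of members and 52.7% of all 32851 entries. The part of this difference in the motif shares was not tested. The stretches below come from short members that were each called higher in several clusters with SHP099, as given further on. Whether these genes change together was not tested. The ETS motif is in capitals where it was found. Uqcr11 and Atp5e hold it, in opposite orientations, and the stretch of Ndufa3 holds none of the 3. Outside the stretches shown, the searched promoter of Ndufa3 holds the YY1 motif and that of Uqcr11 the NRF1 motif. They run from the 150th to the 11th base before the start site (GRCm38.p6): chr2:174464112-174464251 (minus strand, Atp5e), chr10:80406832-80406971 (minus strand, Uqcr11) and chr7:3617223-3617362 (plus strand, Ndufa3). A match is a description of letters and shows no binding.
Atp5e: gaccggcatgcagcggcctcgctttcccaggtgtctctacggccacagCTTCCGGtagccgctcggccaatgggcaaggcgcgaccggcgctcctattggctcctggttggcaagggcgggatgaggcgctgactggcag
Uqcr11: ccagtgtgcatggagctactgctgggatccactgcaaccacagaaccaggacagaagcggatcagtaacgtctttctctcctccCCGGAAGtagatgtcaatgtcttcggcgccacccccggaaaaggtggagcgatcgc
Ndufa3: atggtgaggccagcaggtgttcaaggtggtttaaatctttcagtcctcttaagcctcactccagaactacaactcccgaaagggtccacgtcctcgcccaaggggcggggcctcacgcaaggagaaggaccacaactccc

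Members together made up a few percent of the UMIs of most clusters. In vehicle mice the summed share was highest in cluster 28 (neutrophil-like), at 3.42% ± 0.233 (SD, n = 3), and in cluster 26 (alveolar macrophage-like), at 3.36% ± 0.0551 (SD, n = 3). Cluster 23, the tumour epithelium-like cluster that holds the most UMIs, stood at 3.01% ± 0.0624 (SD, n = 3). Other neutrophil-like clusters were among the lowest, with 1.27% in cluster 33 and 1.52% in cluster 32, so neutrophil-like cells spanned almost the whole range. The unnamed cluster 27 was lowest at 0.65%.

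With SHP099 the mean summed share was higher than with vehicle in 27 of 28 clusters, with a median ratio of 1.12, and every SHP099 mouse was above every vehicle mouse in 19 of them. With SX682 it was higher in only 3 of 31 clusters, with a median ratio of 0.93, and every SX682 mouse was below every vehicle mouse in 17. The combination was above vehicle in 31 of 31 clusters, with a median ratio of 1.13, and about level with SHP099, at a median ratio of 1.0 over 27 clusters. These comparisons share the vehicle or the combination mice. By complex, the median ratio of SHP099 to vehicle was 1.16 for complex V, 1.18 for complex III, 1.15 for complex IV and 1.07 for complex I, and 0.956 for complex II. The summed share of mitochondrially encoded subunits, which also reads RNA quality, was higher than vehicle in 20 of 28 clusters with SHP099 (median ratio 1.17) and in 27 of 31 with SX682 (1.15), where the members were lower. In cluster 23 the median mitochondrial share of a cell's UMIs was 2.95% to 3.5% over the SHP099 mice, 2.18% to 3.36% over the SX682 mice and 2.07% to 2.43% over the vehicle mice. Its part in the members' values was not tested, and no test was made on the sums.

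**Figure D1:**
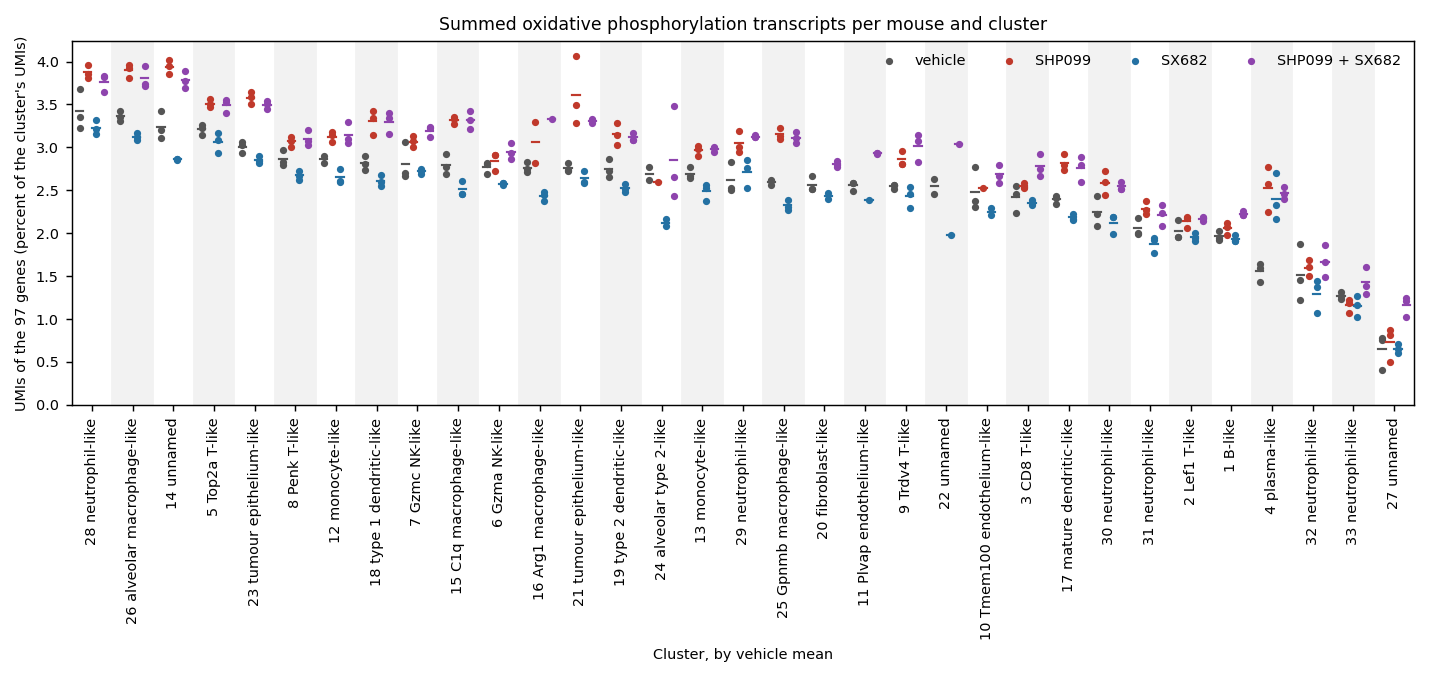
Summed UMIs of the 97 genes as a percent of all UMIs of a cluster (y axis) for each cluster (x axis, ordered by the vehicle mean); each point is 1 mouse with at least 10 cells there and each dash a group mean. SHP099 and combination mice sit above vehicle mice in most clusters, SX682 mice below, and the vehicle means run from 3.42% to 0.65%.

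In the bulk libraries of sorted tumour cells no member was called higher or lower with SHP099. Of 94 members tested with edgeR's quasi-likelihood test and Benjamini-Hochberg adjustment over 20314 genes, 0 passed an adjusted p of 0.05 in either direction, while over all genes 0.00492% were called higher and 0.108% lower. At an unadjusted p under 0.05 there were 14 members, 12 of them higher, and DESeq2 called 0 higher and 2 lower. Over all genes, 1812 of 20314 had an unadjusted p under 0.05 in edgeR, and DESeq2 called 69 higher and 500 lower of 38408. The members did lean one way: 89 of 94 had a log2 fold change above 0, with a median of 0.18, and the 3 libraries of each group did not overlap for 20 of 94 (21.3%), against 14.9% of all genes tested. In bulk RNA, fewer cells of a type and less RNA per cell cannot be told apart. Taken over all genes, the test had little power for small changes. In simulated counts of this comparison, 24.2% of genes changed by 1 log2 unit and 1.5% of those changed by 0.5 were recovered. The changed genes were drawn at random from all 20314, so these shares are not those of the members.

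Among members with a mean log2 CPM of at least 3, the 5 largest positive bulk values belong to complex I, or to complex IV in the case of Ndufa4. Ndufaf5, an assembly factor of complex I, had 13.6, 11.8 and 17.2 CPM (counts scaled to the size of each library) in SHP099 libraries 1 to 3 against 11.5, 10.3 and 8.99 in vehicle libraries 1 to 3. The lowest SHP099 library lay just above the highest vehicle library, and the log2 fold change was 0.47 ± 0.20 (SE, adjusted p = 0.548). Ndufaf2, another assembly factor, had 13.6, 13.8 and 13.6 CPM against 11.5, 10.3 and 8.41, a log2 fold change of 0.44 (adjusted p = 0.512). Ndufc1 and Ndufa5, accessory subunits of complex I, had log2 fold changes of 0.38 each (adjusted p = 0.462 and 0.451). Ndufa4, now counted as a subunit of complex IV, had 254, 262 and 340 CPM against 248, 222 and 199, a log2 fold change of 0.36 (adjusted p = 0.537). In all 5 the groups stood apart, and in all but Ndufaf2 the gap was small beside the spread among the SHP099 libraries.

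At the other end of the members with a mean log2 CPM of at least 3, Ndufc2 had a log2 fold change of -0.02, Sdhd of 0.0, Uqcrc1 of 0.03 and Ndufs1 of 0.05. Atp5b, the catalytic beta subunit of ATP synthase, had 1195, 1310 and 1401 CPM with SHP099 against 1441, 1284 and 1188, and its groups overlapped. Cox7c, a small subunit that rose in many single-cell clusters, had 52.3, 48.9 and 47.4 CPM against 43.8, 38.2 and 39.5, a log2 fold change of 0.29 (adjusted p = 0.495). Atp5md had 67.4, 78.0 and 95.0 CPM against 97.6, 63.1 and 65.1, which overlapped.

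The 2 members that DESeq2 called lower are isoform-like subunits of complex IV. Cox6a2, the heart and muscle isoform of subunit 6a, had 0.0494, 0.166 and 0.222 CPM with SHP099 against 1.91, 1.54 and 2.62 with vehicle. Every SHP099 library was far below every vehicle library, and the log2 fold change was -3.76 ± 0.55 (SE), with an adjusted p of 0.0759 in edgeR, 0.00232 in edgeR with no filter on low counts and 1.8e-09 in DESeq2. Ndufa4l2, a paralogue of Ndufa4 known as a hypoxia-induced gene, had 5.02, 4.1 and 2.02 CPM against 9.45, 14.4 and 6.54, the log2 difference being -1.45 ± 0.41 (SE, adjusted p = 0.309 in edgeR and 0.0152 in DESeq2). Markers of other cells moved in the same libraries. The summed alveolar type 2 markers stood at 3089 to 6915 CPM in vehicle and 289 to 569 in SHP099 libraries, the fibroblast markers at 1239 to 2250 against 413 to 785, and the macrophage markers at 452 to 525 against 109 to 332. The part of these cells in the bulk values of Cox6a2 and Ndufa4l2 was not tested.

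**Figure D2:**
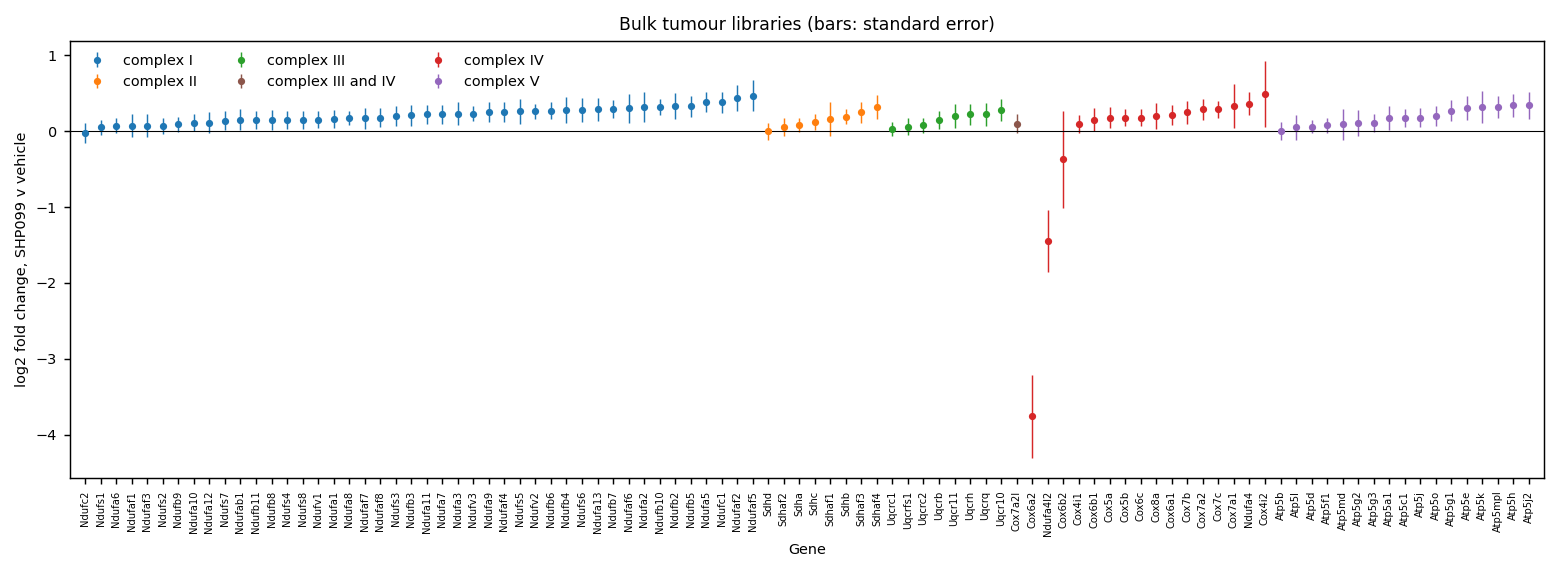
Log2 fold change of SHP099 over vehicle in the bulk tumour libraries (y axis) for each tested member (x axis, by complex), with bars for the standard error. Most points lie between 0 and 0.5, and Cox6a2 (-3.76) and Ndufa4l2 (-1.45) stand apart below.

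In single cells, UMIs were summed per mouse and cluster and each gene was tested in each cluster, so a count below is a count of gene and cluster pairs. With SHP099, 247 of 2111 member pairs were called higher than vehicle and 50 lower (11.7% and 2.37%), by edgeR's quasi-likelihood test with Benjamini-Hochberg adjustment over all genes of the cluster. Over all genes 3.17% of 123153 pairs were called higher and 3.61% lower. The higher calls covered 43 genes and 23 clusters, the lower calls 19 genes and 15 clusters, and the groups of mice did not overlap in 849 of the 2111 member pairs (40.2%), against 27.8% of all pairs tested. Only members that passed the filter on low counts were tested, 94 in at least 1 cluster and between 31 and 94 per cluster. The higher calls fell to 155 without vehicle mouse 1. The lower calls fell to 22 without vehicle mouse 2, 23 without vehicle mouse 1, and 24, 29 and 28 without SHP099 mice 1, 2 and 3.

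Clusters differed widely in how many members were called. In the tumour epithelium-like cluster 23, 34 of 90 members were called higher and 2 lower, against 6.89% and 6.73% of all genes there, and in the Gpnmb macrophage-like cluster 25, 34 of 92 higher and 1 lower, against 3.95% and 2.74%. The alveolar macrophage-like cluster 26 had 26 of 91 higher (4.27% of all genes), the C1q macrophage-like cluster 15 had 20 of 91 (2.12%) and the other tumour epithelium-like cluster, 21, had 20 of 89 (2.47%). The Gzma NK-like cluster 6 was the one with most lower calls, 11 of 78 against 6 higher, where 6.81% of all genes were lower and 4.65% higher. In the Arg1 macrophage-like cluster 16 none of 94 members was called, and few genes of any kind were (0.0808% higher and 0.242% lower). The neutrophil-like cluster 33 had 3 of 44 lower and 0 higher, beside 9.75% and 9.96% of all genes.

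By complex, ATP synthase had the most calls. Complex V had 97 higher and 29 lower of 446 pairs, complex IV 53 and 2 of 313, complex III 27 and 0 of 207, complex I 70 and 13 of 973, and complex II 0 and 5 of 146. Complex II, whose shortest member, Sdhaf4, has 315 coding bases, was the only one of the 5 with no higher call in edgeR. It had 8 higher and 18 lower pairs at an unadjusted p under 0.05, and DESeq2 called 1 higher and 1 lower. Over all genes, 25899 of 123153 pairs had an unadjusted p under 0.05 in edgeR. DESeq2 called 2915 higher and 3573 lower of 413691 pairs over all genes.

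Within complex V, several small membrane subunits and the epsilon subunit rose in many clusters with SHP099. Atp5md was called higher in 22 of 27 clusters (median log2 fold change 0.77), Atp5mpl in 22 of 27 (0.74), Atp5e in 20 of 27 (0.56) and Atp5k, the e subunit of the membrane part, in 12 of 23 (0.93). Other small membrane subunits had fewer higher calls: Atp5j2 10 of 27 clusters (0.35) and Atp5l 6 of 27 (0.32). In cluster 23, Atp5md stood at 439, 458 and 491 CPM in vehicle mice 1 to 3 and at 868, 903 and 915 in SHP099 mice 1 to 3. The 2 groups were far apart beside their spread, the log2 difference being 0.95 ± 0.09 (SE, adjusted p = 6.11e-06). Atp5mpl stood at 323, 314 and 335 CPM against 630, 610 and 568 (log2 fold change 0.89, adjusted p = 1.52e-05), and Atp5e at 717, 742 and 783 against 1353, 1293 and 1238 (0.79, adjusted p = 2.4e-05). Neither overlapped. Atp5k stood at 68.7, 62.8 and 74.8 CPM against 127, 117 and 143 in cluster 23, and at 46.1, 46.4 and 62.1 against 135, 141 and 152 in cluster 25. Its log2 fold change was 0.90 ± 0.11 (SE, adjusted p = 9.96e-05) in the first and 1.47 (adjusted p = 1.36e-05) in the second, where every SHP099 mouse was more than 2 times the highest vehicle mouse.

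Other subunits of the same enzyme fell or were not called. Atp5d, the delta subunit that pairs with epsilon in the rotor stalk, was called lower in 9 of 27 clusters and lay below 0 in all 27, with a median of -0.48. In the neutrophil-like cluster 30 it stood at 451, 536 and 415 CPM with vehicle and at 231, 240 and 253 with SHP099, a log2 fold change of -0.98 (adjusted p = 0.000531), with no overlap. In cluster 23 the values were 578, 567 and 604 against 453, 459 and 440 (-0.37, adjusted p = 0.0077). Atp5c1, the gamma subunit that forms the central shaft, was lower in 7 of 26 clusters, and in the NK-like cluster 6 stood at 390, 418 and 385 CPM against 260, 200 and 225 (-0.78, adjusted p = 0.00286). Atp5g2, 1 of the 3 genes for the membrane ring, was lower in 10 of 26 clusters (median -0.39). Its call in cluster 23 (-0.27, adjusted p = 0.0312) was lost without any 1 of the SHP099 or vehicle mice, at adjusted p of 0.0533 to 0.0888. The catalytic subunits were not called in cluster 23: Atp5a1 had a log2 fold change of -0.03 (adjusted p = 0.857) and Atp5b of 0.03 (adjusted p = 0.886).

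In complex IV the higher calls also went mainly to small subunits. Cox7c was called higher in 21 clusters (median 0.67) and Cox6c in 9 (0.37). In cluster 23, Cox7c stood at 661, 810 and 743 CPM with vehicle and 1161, 1314 and 1519 with SHP099, the log2 difference being 0.85 ± 0.11 (SE, adjusted p = 0.000113). In cluster 25 its values were 553, 550 and 516 against 941, 903 and 981, again with no overlap. Cox6c stood at 687, 693 and 707 CPM against 1095, 1077 and 924 in cluster 23 (0.57, adjusted p = 0.000228), and Ndufa4 at 988, 1091 and 986 against 1492, 1632 and 1715 (0.66, adjusted p = 5.63e-05). Subunits that were not called there include Cox4i1, the main form of subunit 4, at 1178, 1188 and 1190 CPM against 1368, 1284 and 1166 (0.1, adjusted p = 0.4). Cox5a (0.09, adjusted p = 0.594), Cox6a1 (0.02, adjusted p = 0.898) and Cox8a (0.14, adjusted p = 0.287) were not called either. Cox7a2 was called (0.37, adjusted p = 0.0181) but lost the call without SHP099 mouse 1 or 2 or vehicle mouse 1 or 2 (0.0516 to 0.0758).

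In complex III, higher calls went to small subunits only, and Uqcr11 had the most, 11 clusters with a median of 0.56. In cluster 23 it stood at 360, 363 and 397 CPM with vehicle and 658, 614 and 517 with SHP099, a log2 fold change of 0.68 (adjusted p = 0.000166). The lowest SHP099 mouse was clear of the highest vehicle mouse. Uqcrc1, a large core subunit (-0.27, adjusted p = 0.0895), and Uqcrfs1, the Rieske iron-sulfur subunit (-0.15, adjusted p = 0.27), were not called there. Cox7a2l, which holds complexes III and IV together, had -0.21 (adjusted p = 0.179).

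In complex I the higher calls were led by accessory subunits. Ndufa3 was called higher in 13 clusters (median 0.62). It stood at 130, 142 and 136 CPM with vehicle and 233, 240 and 227 with SHP099 in cluster 23, at 131, 131 and 144 against 256, 380 and 266 in cluster 21, and at 169, 172 and 166 against 316, 316 and 319 in cluster 25. No SHP099 mouse overlapped a vehicle mouse in any of the 3, with log2 fold changes of 0.78 (adjusted p = 5.09e-05), 1.15 (adjusted p = 0.000674) and 0.91 (adjusted p = 4.77e-05). Ndufa5 stood at 155, 171 and 160 CPM against 303, 290 and 308 in cluster 23 (0.89, adjusted p = 1.22e-05), and at 123, 146 and 127 against 253, 291 and 331 in cluster 21 (1.13, adjusted p = 0.000319). Ndufa1, a small X-linked subunit of the membrane arm, stood at 200, 226 and 234 CPM against 525, 486 and 381 in cluster 25 (1.08, adjusted p = 6.92e-05).

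The core of complex I did not follow. In cluster 23, Ndufs1, the largest core subunit, had a log2 fold change of 0.02 (adjusted p = 0.966) and Ndufv1, which binds NADH, of -0.12 (adjusted p = 0.573). Ndufs3 and Ndufs8, core subunits of the electron path, were each called lower in 3 of 24 clusters, and Ndufv1 in 2 of 20. In the NK-like cluster 6 the call for Ndufs8 was lost without SHP099 mouse 1 (adjusted p = 0.0755) or vehicle mouse 2 (0.13), and the call for Ndufv1 was lost without SHP099 mouse 1 (0.223) or 3 (0.0519) or any 1 vehicle mouse (0.0537 to 0.0837).

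Complex II had 5 calls among 146 pairs, all lower. Over all genes, 3.61% of pairs were called lower and 3.17% higher, so the lower calls of complex II were near the share of all genes. Sdhb, its iron-sulfur subunit, was lower in 3 of 25 clusters (median -0.42) and Sdhaf1, an assembly factor that serves Sdhb, in 2 of 16. In cluster 23 Sdhb stood at 165, 167 and 178 CPM with vehicle and 134, 174 and 173 with SHP099 (-0.08, adjusted p = 0.677), and Sdha, the flavoprotein, at 59.6, 70.4 and 61.2 against 86.0, 68.8 and 75.7 (0.26, adjusted p = 0.165). Both pairs of groups overlapped there. In the NK-like cluster 6, the call for Sdhb was lost without SHP099 mouse 1 (adjusted p = 0.134) or 2 (0.053), or vehicle mouse 2 (0.0846) or 3 (0.0747).

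**Figure D3:**
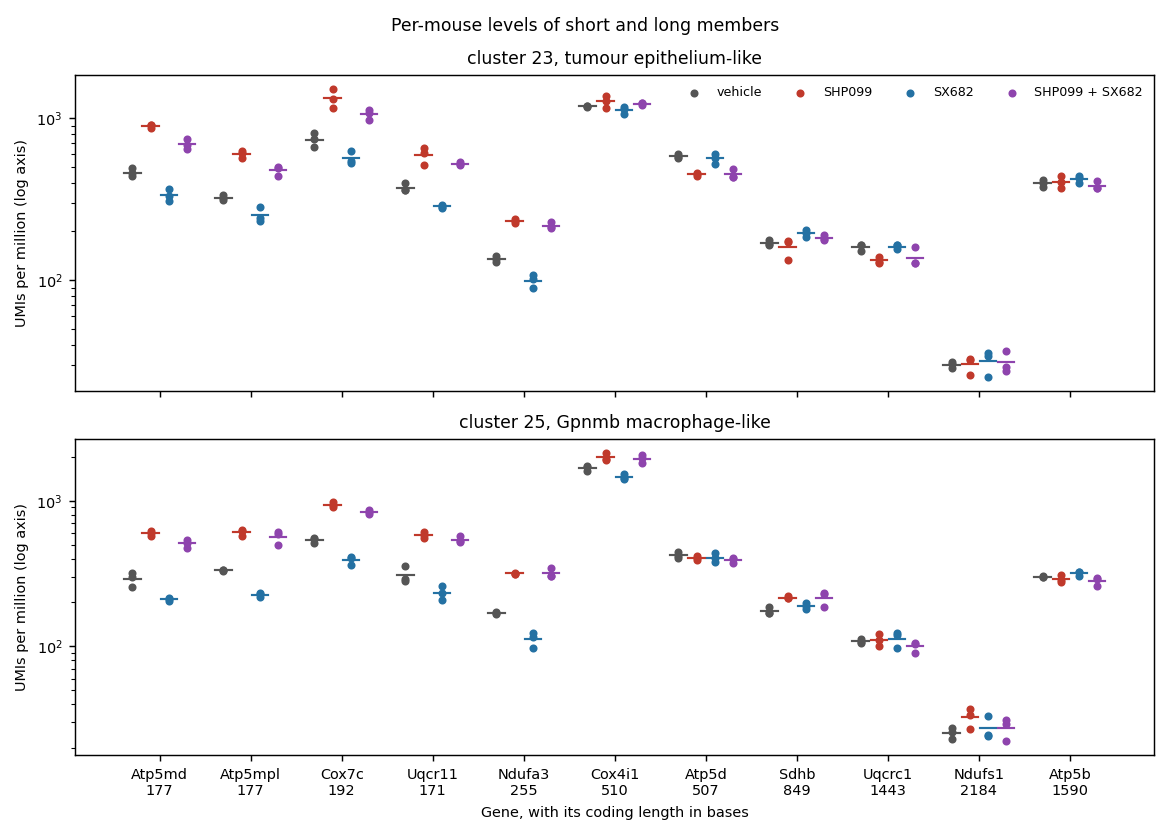
CPM (log y axis) of 11 members (x axis, with coding length in bases) in clusters 23 and 25; each point is 1 mouse and each dash the mean of a treatment. The 5 short genes at the left are separated by treatment, SHP099 and combination above vehicle and SX682 below, while the long genes at the right, such as Atp5b and Ndufs1, overlap.

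With SX682 the calls were fewer and all were lower. Of 2364 member pairs, 27 were called lower than vehicle (1.14%) and 0 higher, against 0.32% lower and 0.0715% higher of 139816 pairs over all genes. At an unadjusted p under 0.05 there were 18 higher and 394 lower, DESeq2 called 0 higher and 148 lower, and edgeR with no filter on low counts 1 higher. Over all genes, 11591 of 139816 pairs had an unadjusted p under 0.05. DESeq2 called 169 higher and 970 lower of 460513 pairs over all genes, and edgeR with no filter 1047 higher. The median log2 fold change over member pairs was -0.12, with 29.7% above 0. The 27 calls covered 11 genes in 6 clusters: 6 each in the macrophage-like clusters 25 and 26, 5 in cluster 23, 4 each in clusters 15 and 19 and 2 in cluster 18. Of all genes, 0.387%, 0.664%, 0.554%, 0.305%, 0.449% and 0.457% were called lower in these 6 clusters, in the same order. The count of 27 was 17, 2 and 16 without SX682 mice 1, 2 and 3, and 7, 8 and 14 without vehicle mice 1, 2 and 3. This comparison and the one with SHP099 share the vehicle mice.

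Atp5e was lower in 4 of 30 clusters with SX682 (median -0.34), and Atp5md, Atp5mpl, Cox6c, Ndufa3 and Uqcr10 in 3 of 30 each. In cluster 23, Cox6c stood at 687, 693 and 707 CPM in vehicle and 504, 493 and 481 in SX682 mice, a log2 fold change of -0.50 (adjusted p = 0.00728) with no overlap, and this call held in each alternative that could be fitted. Atp5md stood at 439, 458 and 491 CPM against 333, 309 and 366 (-0.47, adjusted p = 0.0174), but lost the call without SX682 mouse 1 (0.0681) or 2 (0.083) or vehicle mouse 1 (0.0507) or 3 (0.0757). Ndufa3 stood at 130, 142 and 136 CPM against 89.8, 107 and 101 (-0.46, adjusted p = 0.0275), and lost the call without SX682 mouse 1 (0.161), any 1 vehicle mouse (0.0756 to 0.0784) or combination mouse 2 (0.05). Ndufv3, a subunit of the NADH-binding arm with a long splice form, was the 1 longer gene among them by annotated coding length (1407 bases). Counts per gene do not tell its splice forms apart. Ndufv3 stood at 259, 289 and 264 CPM against 189, 152 and 202 in cluster 23 (-0.58, adjusted p = 0.0135), and lost the call without SX682 mouse 2 (0.0543). Cox7c (-0.38, adjusted p = 0.155) and Atp5mpl (-0.37, adjusted p = 0.0849) were lower in every SX682 mouse there without being called.

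With the combination, 192 of 2348 member pairs were called higher than vehicle (8.18%) and 9 lower (0.383%), against 2.04% and 1.96% of 133280 pairs over all genes. The count of higher calls was 88 without combination mouse 2, 120 and 112 without combination mice 1 and 3, and 91 and 97 without vehicle mice 1 and 2. The count of lower calls was 5, 2 and 5 without combination mice 1, 2 and 3, 2 without vehicle mouse 1 or 2, and 5 and 4 without SHP099 mice 1 and 3, which enter the shared fit. Atp5mpl was called higher in 17 of 30 clusters (median 0.63), Atp5md in 16 (0.68), Atp5e in 14 (0.48), Cox7c in 14 (0.47), Ndufa3 in 14 (0.69) and Atp5k in 12 of 26 (0.93). In cluster 23, Atp5md stood at 645, 745 and 683 CPM in combination mice (0.58 against vehicle, adjusted p = 0.000675) and Ndufa3 at 212, 211 and 230 (0.68, adjusted p = 0.00028). Atp5k stood at 128, 123 and 140 CPM (0.92, adjusted p = 0.000138), within the range of the SHP099 mice. Atp5d was at 432, 436 and 485 CPM (-0.37, adjusted p = 0.00957), below each vehicle mouse. Its log2 fold change turned to 0.58 (adjusted p = 0.878) in cells of 1000 to 3000 UMIs, which lie far below the median depth of this cluster. By complex, complex V had 75 higher and 3 lower of 497 pairs, complex IV 47 and 1 of 348, complex III 16 and 0 of 231, complex I 54 and 3 of 1079, and complex II 0 and 2 of 164.

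The combination and SHP099 alone differed in few pairs, while the combination and SX682 alone differed in many, and both comparisons use the same combination mice. Against SHP099, 2 of 2017 pairs were called higher and 3 lower (0.0992% and 0.149%, against 0.361% and 0.184% over all genes). Cox8a, the usual form of subunit 8 of complex IV, was higher in the B-like cluster 1 (0.34, adjusted p = 0.0466) and the neutrophil-like cluster 33 (0.6, adjusted p = 0.0477). In cluster 23, Atp5md (-0.37, adjusted p = 0.0408), Ndufa5 (-0.41, adjusted p = 0.0313) and Ndufc1 (-0.42, adjusted p = 0.0278) were lower than with SHP099 alone. The total of 5 was 0 without any 1 of the combination mice, 2, 3 and 1 without SHP099 mice 1, 2 and 3, and 1 to 4 without any 1 of the other mice. Against SX682, 443 of 2270 pairs were called higher and 5 lower (19.5% and 0.22%, against 2.54% and 1.41% over all genes). Ndufa3 was higher in 26 of 29 clusters (median 1.11), Atp5mpl in 25 (1.07), Cox6c in 22 and Atp5k in 19 of 25 (1.28). In cluster 25, Ndufa3 stood at 306, 347 and 302 CPM in combination mice against 123, 115 and 97.8 in SX682 mice, with no overlap. Complex IV had 108 higher and 0 lower of 336 pairs in this comparison, and complex V 134 and 3 of 480.

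The length of the coding sequence ordered the members in each comparison that had many calls, and in SX682 against vehicle, which had 27. The length of the whole mRNA, which can be far longer, was not ranked: Atp5md has 177 coding bases in an mRNA of 2733. Over 83 members tested in at least 10 clusters, Spearman's rank correlation between coding length and the median log2 fold change was -0.7 for SHP099 against vehicle, -0.76 for the combination against vehicle, -0.78 for the combination against SX682, 0.73 for SX682 against vehicle and 0.2 for the combination against SHP099. These are descriptions across genes that share mice and libraries. With SHP099, 61.1% of the pairs of members of up to 200 bases were called higher (median 0.62), 21.2% of those of 201 to 300 bases (0.32), 8.04% of those of 301 to 450 bases (0.11), 0.977% of those of 451 to 900 bases (-0.12) and 0.752% of those over 900 bases (-0.05). With SX682, 8.33% of the pairs of up to 200 bases were called lower, with a median of -0.37. In the bulk libraries the same rank correlation over 94 members was -0.31.

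Short genes outside the oxidative phosphorylation list were also called higher more often than long ones. With SHP099, 25.5% of the pairs of other genes of up to 200 coding bases were called higher (median 0.25), and 74.7% of the pairs of cytosolic ribosomal protein genes of that length (median 0.66). At 201 to 300 bases the ribosomal protein genes were at 66.5% (median 0.72), above the members of that length. Set against other genes of the same length class in the same cluster, the members had a median log2 difference of 0.41 up to 200 bases, 0.35 at 201 to 300, 0.21 at 301 to 450, 0.03 at 451 to 900 and -0.14 above 900 bases. The median over all lengths was 0.15, with 68.2% of the member pairs above the other genes. In bulk it was 0.12, with 91.5% above.

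**Figure D4:**
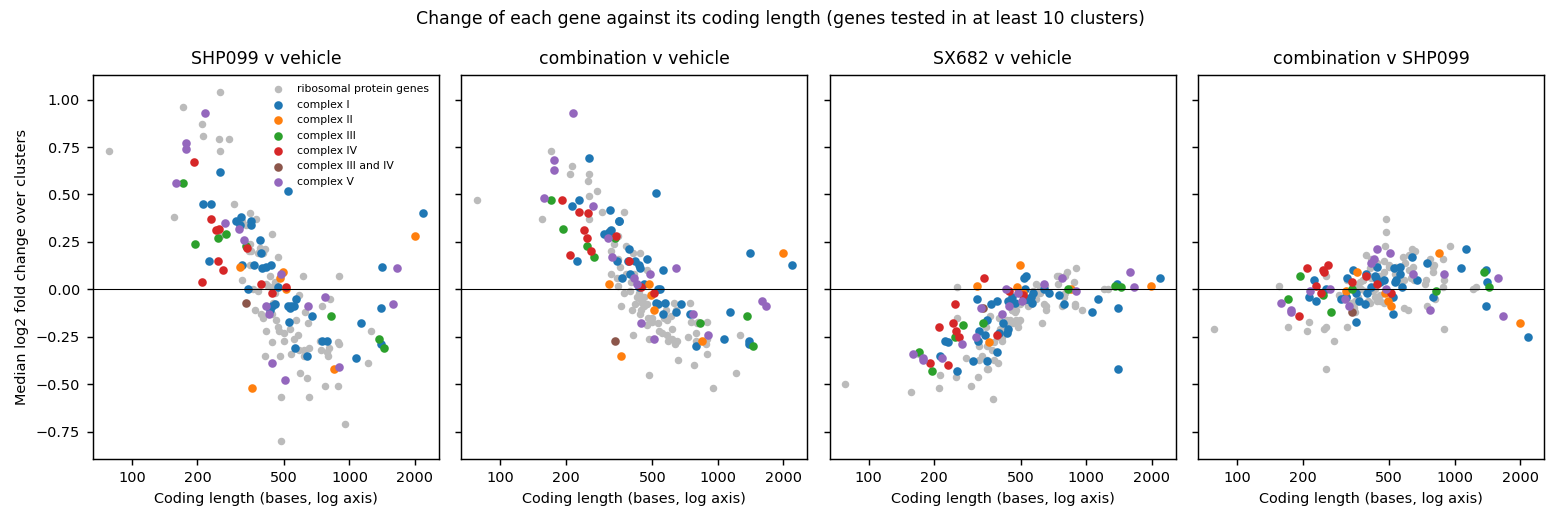
Median log2 fold change over clusters (y axis) against coding length in bases (log x axis) for members, coloured by complex, and for cytosolic ribosomal protein genes (grey), in 4 comparisons. Values fall with length for SHP099 and for the combination against vehicle, rise with length for SX682 against vehicle, and show little slope for the combination against SHP099.

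Depth per cell moved with treatment, as given above, so the comparison was repeated on cells of 1000 to 3000 UMIs, chosen after the data were seen. In these cells the mean depth was 1668 to 1694 UMIs over the SHP099 mice, 1711 to 1731 over the combination mice, 1765 to 1821 over the SX682 mice and 1766 to 1804 over the vehicle mice, against 2688 to 7048 over the 12 mice in all cells. The differences in depth were smaller there, but SHP099 and combination mice still lay below every vehicle mouse. For the 1066 SHP099 pairs that could be fitted both ways, the median log2 fold change was 0.57 up to 200 bases, 0.25 at 201 to 300, 0.04 at 301 to 450, -0.17 at 451 to 900 and -0.01 above, against 0.62, 0.31, 0.07, -0.14 and -0.05 in all cells. For SX682 the shortest class had -0.28 against -0.36 in all cells (1236 pairs), and for the combination against vehicle 0.54 against 0.53 (1386 pairs). The part of depth in the order by length was not tested beyond these values. There were fewer calls in these cells: 64 higher and 23 lower for SHP099, 1 lower for SX682, and 41 higher and 2 lower for the combination. Over all genes in these cells, 1054 of 32099 pairs were called higher and 1241 lower for SHP099. For SX682 the counts over all genes were 44 and 95 of 35435, and for the combination 619 and 495 of 37684. What lowered the number of calls was not tested. Of 297 SHP099 calls, 166 could be fitted there, 155 kept their direction and 76 were still called. Cluster 23 had too few such cells for the SHP099 comparison, and in that cluster the median depth of all cells was 16968 to 19092.5 UMIs over the SHP099 mice and 14287.5 to 17182 over the vehicle mice, but 9400 to 12939 over the combination mice. In these cells of cluster 25 the short gene Atp5k had a log2 fold change of 1.46 (adjusted p = 0.417), close to that in all cells, and Atp5md a smaller one (0.29, adjusted p = 0.849, against 1.05 in all cells). Ndufa3 turned to -0.87 there (adjusted p = 0.574, against 0.91 in all cells).

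**Figure D5:**
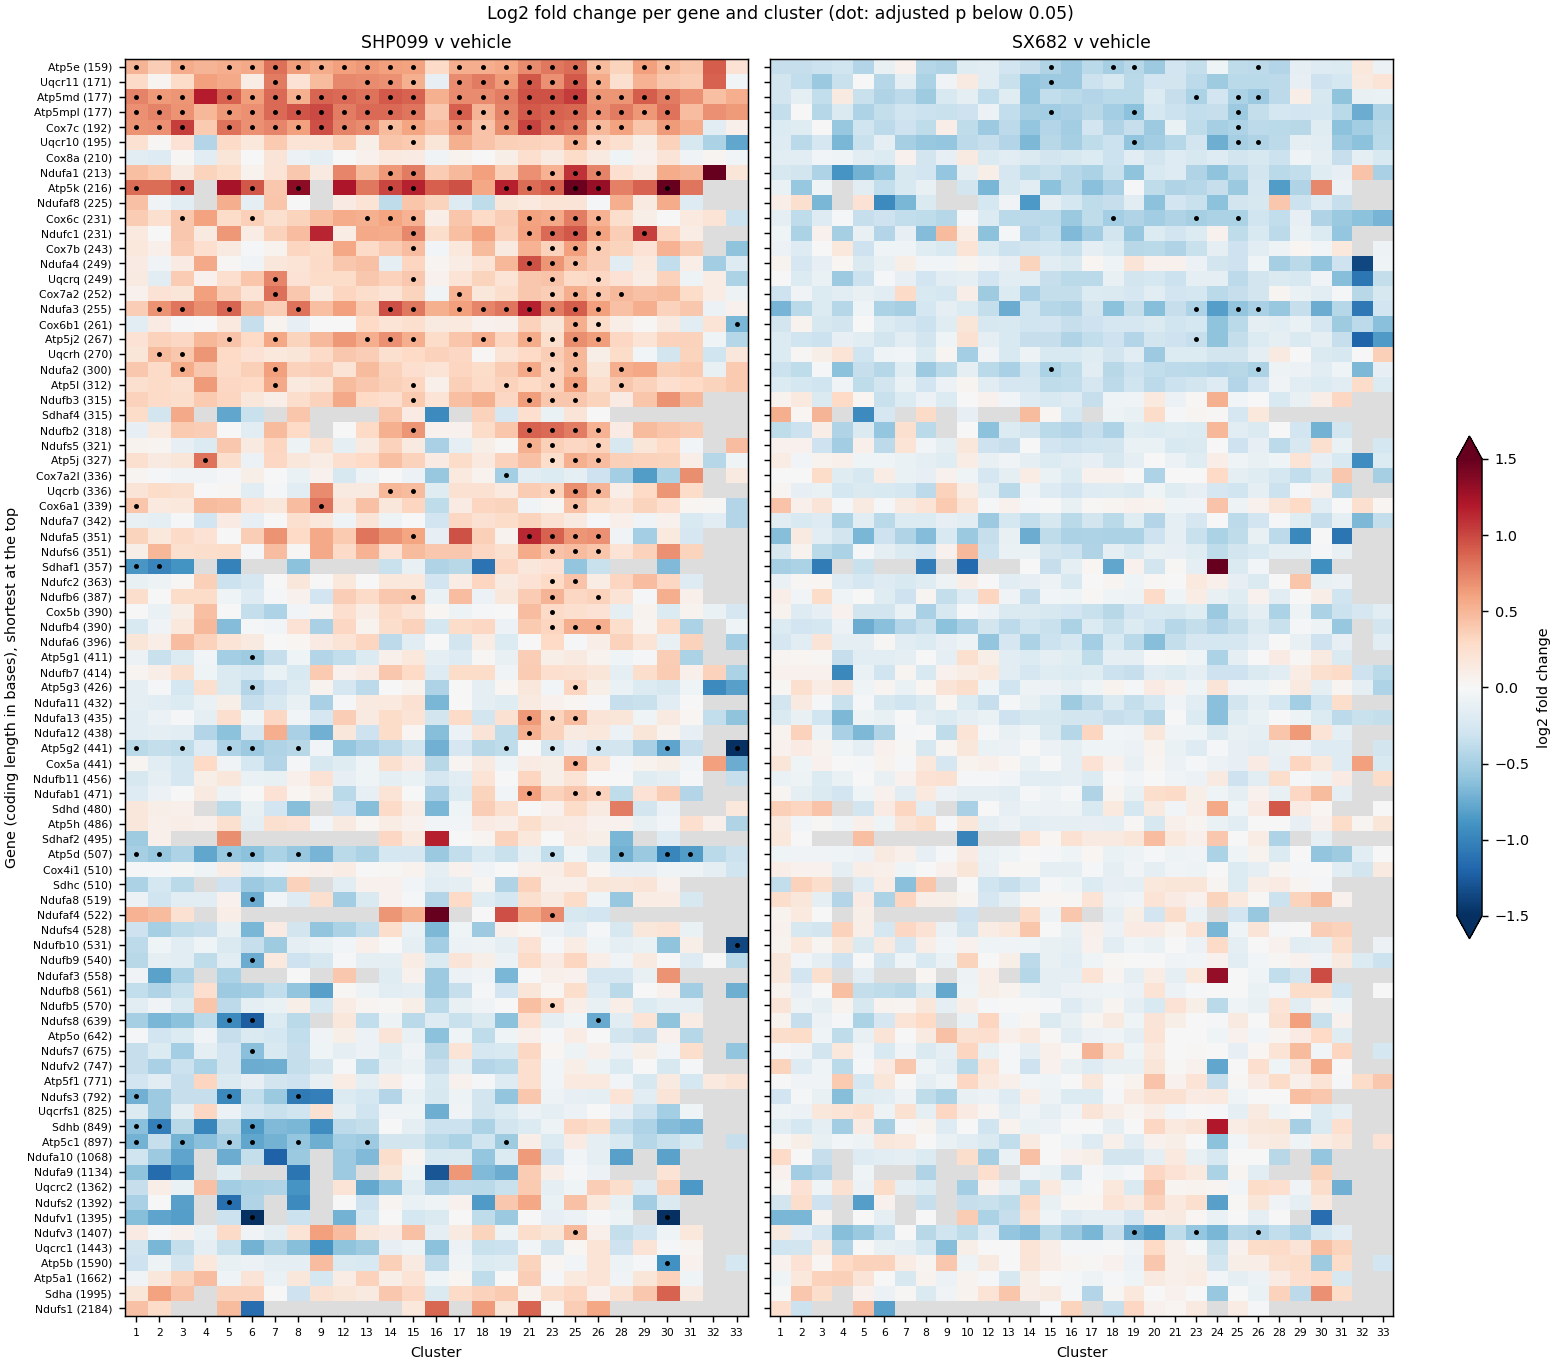
Log2 fold change (colour, limited to 1.5 either way) of each member (rows, shortest coding length at the top) in each cluster (columns) for SHP099 and for SX682 against vehicle; dots mark an adjusted p below 0.05 and grey marks pairs not tested. With SHP099 the dots crowd in the top rows, where Atp5md and Atp5mpl are called in 22 clusters each, and with SX682 all but 3 of the 27 dots lie among members of up to 300 bases.

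The UMIs of the tissue isoforms of complex IV were few and unevenly spread over the clusters. Cox7b2 and Cox8c had 0 UMIs in all 44986 cells and Cox8b had 12. Of 2619 UMIs of Cox6a2, 47.2% lay in the plasma-like cluster 4, 17.4% in the alveolar type 2-like cluster 24 and 16.7% in the Gpnmb macrophage-like cluster 25. Of 2249 UMIs of Cox6b2, known as the testis isoform, 42.5% lay in the alveolar macrophage-like cluster 26. Of 946 UMIs of Ndufa4l2, 73.3% lay in the fibroblast-like cluster 20. Cox4i2, the lung isoform of subunit 4, had 899 UMIs that were spread more widely. Of these, 24.8% lay in the Tmem100 endothelium-like cluster 10, 22.2% in cluster 20 and 16.5% in the Arg1 macrophage-like cluster 16. Cox7a1, the muscle isoform of subunit 7a, had 1114 UMIs, with 33.2% in cluster 23, 23.2% in cluster 21 and 12.6% in cluster 26. These shares follow cell numbers and depth as well as level.

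Some isoforms changed within a cluster. Cox6a2 in cluster 25 stood at 44.6, 31.6 and 13.9 CPM with vehicle and 0, 5.17 and 2.89 with SHP099, from 118, 45 and 21 UMIs against 0, 5 and 3. The groups did not overlap, and the fitted log2 fold change was -3.57 ± 0.66 (SE, adjusted p = 0.00317), a size that depends on the prior count because 1 mouse was at 0. Beside it, the summed tumour epithelium markers of that cluster were 173 to 236 CPM with vehicle and 29 to 76.1 with SHP099 and the macrophage markers 20086 to 25370 against 10606 to 15845, while the alveolar type 2 markers were 7.93 to 12.6 against 8.15 to 11.2. The 4 plasma markers summed to 121 to 887 against 131 to 173 CPM, but 2 of them were lower in every SHP099 mouse: Jchain stood at 2.14 to 730 against 0 in all 3, and Mzb1 at 3.54 to 14.5 against 0 to 1.6. The summed B markers were 27.1 to 46.9 against 9.13 to 21.7. Their part in the result was not tested. Cox7a1 in cluster 23 stood at 8.92, 10.9 and 11.1 CPM with vehicle and 18.2, 20.7 and 16.2 with SHP099 (0.87 ± 0.24, adjusted p = 0.0266), with no overlap. That call was lost in DESeq2 (0.0718) and without SHP099 mouse 1 (0.058) or 2 (0.14) or vehicle mouse 1 (0.101). Ndufa4l2 in the fibroblast-like cluster 20 stood at 230, 332 and 265 CPM in vehicle and at 24, 27 and 0 in combination mice (-3.79 ± 0.77, adjusted p = 0.0242). The combination values rest on 4, 4 and 0 UMIs, against 196, 185 and 100 with vehicle, and the fitted size depends on the prior count because 1 mouse was at 0. That call was lost without any 1 combination mouse (adjusted p = 0.0787 to 0.0879) or without vehicle mouse 2 (0.0543), and with at least 30 cells per mouse (0.129). Median UMIs per cell of this cluster were 8124 to 15091 over the vehicle and 2788 to 3955.5 over the combination mice. The fibroblast markers were 7505 to 10248 CPM with vehicle and 7604 to 10573 with the combination. The alveolar type 2 markers were 0 to 4.97 against 35.4 to 935, the endothelium markers 28.6 to 228 against 236 to 388, the NK markers 4.76 to 199 against 270.0 to 406, and the monocyte markers 690.0 to 953 against 203 to 339. Their part in the result was not tested.

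Other genes of the same pathway gave a mixed picture with SHP099. Of 374 pairs of electron carriers and assembly factors outside the symbol rule, 42 were called higher and 2 lower. Most were Cox17, a very small copper chaperone of complex IV, called higher in 25 of 27 clusters with a median of 0.93. Cox20, another complex IV assembly factor, was higher in 7 of 25, and Cycs, cytochrome c itself, in 5 of 27. Of the subunits encoded in the mitochondrial genome, 54 of 328 pairs were higher and 36 lower. mt-Nd4l, of complex I, was higher in 13 of 28 clusters and mt-Nd3 in 9 of 23, whereas mt-Atp8, of complex V, was lower in 12 of 16. In cluster 25, mt-Atp8 stood at 2.72 to 8.0 CPM with SHP099 and 46.0 to 74.0 with vehicle, a log2 fold change of -3.1 (adjusted p = 1.36e-05).

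Pathways that feed or serve the respiratory chain are set here against the 3.17% higher and 3.61% lower calls over all genes with SHP099. They were not matched by coding length. Of pairs of genes outside the members, 6.92% at 451 to 900 coding bases and 2.04% above 900 were called lower. For cytosolic ribosomal protein genes these shares were 35.5% and 48.8%. The part of length in the counts below was not tested. Glycolysis genes had 7 pairs higher and 88 lower of 309, with a median of -0.48: Aldoa was lower in 18 of 27 clusters, Tpi1 in 15 of 24, Pkm in 12 and Ldha, which makes lactate, in 10. Hk2, the inducible hexokinase, was higher in 6 of 13. The membrane carriers had 1 higher and 27 lower of 174, led by the uncoupling protein gene Ucp2 (8 clusters) and the pore gene Vdac2 (7). Genes of the TCA cycle and pyruvate dehydrogenase had 4 higher and 6 lower of 281, mitochondrial ribosome genes 20 and 23 of 1377, and regulators of mitochondrial biogenesis 2 and 0 of 99. These 3 lists lay below the share of all genes in each direction. With SX682, glycolysis had 1 higher and 0 lower of 344 pairs, against 0.0715% and 0.32% over all genes. With the combination against vehicle it had 0 higher and 76 lower of 339, against 2.04% and 1.96%.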

How the data were processed

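The authors deposited raw read counts per gene for 6 bulk libraries and raw UMI counts per gene and cell for the 4 single-cell captures, with the mouse and cluster of each cell. The submitters' processing notes name bcl2fastq, STAR, HTSeq, Picard, bedtools, DESeq2, R 3.3.0, Cell Ranger and mm10 without their roles. The bulk kit keeps strand, but the deposited bulk counts are unstranded per the names of the files, so overlapping genes on opposite strands share reads. The cells in the files start at 500 UMIs and reach 20.0% mitochondrial UMIs, and no further cell filter or doublet caller was applied. Whether the authors removed doublets is not given in the sources used here.

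Groups came from the labels. UMIs were summed per mouse and cluster for mice with at least 10 cells there, and a comparison needed 2 such mice in each group. edgeR 4.0.16 (filterByExpr, TMM, quasi-likelihood test, R 4.3.3) was fitted per cluster over all 4 treatments and for bulk over both groups, with Benjamini-Hochberg adjustment over all genes tested and calls below 0.05. CPM are counts scaled by TMM library sizes. p-values measure the spread between libraries of a group in bulk, and between mice within a capture in single cells. With 1 capture per treatment, the single-cell p-values hold no spread between captures. Alternatives were DESeq2 1.42.0, its size factors, no filter on low counts, a replicate block, mitochondrially encoded genes left out, stricter cell filters, at least 30 cells per mouse, each mouse left out, and cells of 1000 to 3000 UMIs (added after seeing the data). In counts simulated for cluster 23, 61.2% of changes of 1 log2 unit were recovered for SHP099 and 74.6% for SX682. The changed genes were drawn at random from all 9936 genes there, not from the members.

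Members and gene lists were chosen with earlier results of these data known. A cluster was called X-like from its list's markers at a log2 fold of at least 1 over the other clusters (pseudocount 10 CPM), checked against its 10 leading genes by fold at 100 CPM or more. Named bulk genes are the 5 members with the largest and the 5 with the smallest log2 fold change at a mean log2 CPM of at least 3. Named single-cell genes are up to 10 members called in most clusters per comparison and direction, up to 4 called members per direction in clusters with at least 3 members called (mean log2 CPM of at least 5, no overlap between groups), a fixed set of core subunits and isoforms, and up to 3 called genes per other list. Other genes were named after their values were seen, among them Cox7c, Atp5md, Cox6a2 and Ndufa4l2 in bulk. Clusters 23 and 25 were chosen for values per mouse after the values were seen. Coding lengths and coding sequences are from GENCODE vM21, promoters from RefSeq.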

Additional observations from a re-analysis of the deposited data

Results flagged for a closer look

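Cox6b1, the subunit of complex IV that faces the space between the membranes, stood on opposite sides of vehicle in different clusters with SHP099. By edgeR's quasi-likelihood test with Benjamini-Hochberg adjustment it was called higher in 2 of them (adjusted p = 0.00277 and 0.0368) and lower in 1 (0.0429). Its log2 fold change over vehicle was 0.55 in the Gpnmb macrophage-like cluster 25 (786, 785 and 704 against 472, 524 and 559 CPM) and 0.27 in the alveolar macrophage-like cluster 26 (1033, 1096 and 985 against 885, 854 and 849 CPM), with every SHP099 mouse above every vehicle mouse. In the neutrophil-like cluster 33 it was -0.69 (292, 176 and 249 against 364, 348 and 589 CPM), with every SHP099 mouse below every vehicle mouse. The difference between the clusters was not tested.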

How the results depend on the processing

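Cells of 1000 to 3000 UMIs, an alternative chosen after seeing the data, gave 64 higher and 23 lower pairs for SHP099 against vehicle, 1 lower for SX682, 41 higher and 2 lower for the combination against vehicle, 3 calls against SHP099 and 143 against SX682. Among all genes, the combination had 247 higher and 104 lower of 32719 pairs against SHP099 there, and 1129 and 515 of 35435 against SX682. DESeq2 gave 2 lower bulk members, 148 lower pairs for SX682, 17 lower for the combination against vehicle and 18 calls for the combination against SHP099. Among all genes it called 500 lower of 38408 in bulk and 970 lower of 460513 pairs for SX682. For the combination it called 2503 lower of 457699 pairs against vehicle, and 516 higher and 366 lower of 396439 against SHP099. With no filter on low counts there were 1 lower bulk member, 31 lower pairs for SHP099, 1 higher and 63 lower for SX682, and 9 calls for the combination against SHP099, and with the cell filters raised to 1000 UMIs and 10% mitochondrial that comparison had 3. Among all genes, no filter gave 258 lower of 38408 in bulk and 6530 lower of 413691 pairs for SHP099. It gave 1047 higher and 2055 lower of 460513 for SX682, and 2001 and 957 of 396439 for the combination against SHP099. The raised cell filters gave 292 and 168 of 105632 in that last comparison. Leaving out 1 mouse or library gave 0 to 0 bulk calls in each direction, 155 to 242 higher and 22 to 53 lower pairs for SHP099, 0 to 0 higher and 2 to 29 lower for SX682, 88 to 191 higher and 2 to 7 lower for the combination against vehicle, 0 to 4 calls against SHP099 and 301 to 425 against SX682. The counts among all genes moved too: 1979 to 3999 higher and 2569 to 4660 lower for SHP099, and 38 to 162 and 148 to 454 for SX682. For the combination against vehicle they were 1399 to 2824 and 1275 to 2722. With the replicate block the counts were 236 higher and 51 lower for SHP099, 0 and 34 for SX682, 183 and 8 for the combination against vehicle, 6 against SHP099, 432 against SX682, and 0 in bulk. Among all genes the block gave 3848 higher and 4510 lower of 123153 pairs for SHP099, and 220 and 652 of 139816 for SX682. The combination had 2789 and 2571 of 133280 against vehicle, 464 and 231 of 113250 against SHP099, and 3281 and 1805 of 129913 against SX682. Samples that share a number share only that number: their deviations correlated at -0.11 to 0.1 in bulk and -0.19 to 0.39 over sums per mouse. Cells of 1000 to 3000 UMIs lie far below the median depth of cluster 23. In such cells of cluster 23, log2 fold changes of the combination over vehicle turned sign for Atp5d (0.58), Atp5mpl (-0.43) and Cox7a2 (-0.01), and in cluster 25 that of SHP099 over vehicle for Ndufa3 (-0.87), none past the threshold. The cause was not tested. Few cells per mouse limit depth in rare clusters, and a pair that was not called is not shown to be equal.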
